A study of Mus musculus with 9 samples.

Results

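Cohesin is the ring-shaped protein complex that holds sister chromatids together and, with the DNA-binding protein CTCF, folds interphase chromatin into loops. Its ring is built from a pair of SMC proteins, closed by a kleisin and bound by a STAG protein. Male germ cells add meiotic versions of these parts to the general ones: SMC1B beside SMC1A, RAD21L and REC8 beside RAD21, and STAG3 beside STAG1 and STAG2. CTCF likewise has a germ cell paralog, CTCFL, also known as BORIS.

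The 10 genes described here are the cohesin subunits Smc1a, Smc1b, Smc3, Rad21, Rad21l, Stag1, Stag2 and Stag3 and the paralogs Ctcf and Ctcfl, taken by gene name from the 55414 genes listed in the deposited count table. RNA had been sequenced from mouse round spermatids (RS), the haploid cells that follow meiosis, in 3 libraries for each of 3 groups. The culture medium in the study's methods, which is given for spermatocytes, held lactate and pyruvate. All cells were kept for 24 h with 0.15% DMSO. The vehicle group (libraries 1 to 3) received nothing more. The oxamate group (libraries 4 to 6) received 24 mM oxamate, an inhibitor of lactate dehydrogenase that was used to lower cellular 2-hydroxyglutarate. The remaining group (libraries 7 to 9) received 24 mM oxamate together with octyl-L-2HG at 0.3 mM, an ester form of L-2-hydroxyglutarate that enters cells. The labels give the genotype as WT. The study's methods describe sorting of the cells by flow cytometry from the testes of adult mice in which a Cre recombinase under the Stra8 promoter switches on the fluorescent protein tdTomato in the germ line. The 3 comparisons asked, in turn, what oxamate changed, what the added ester changed in its presence, and how the cells with both compounds differed from vehicle. These comparisons share libraries, so a high or low library of one group enters more than one of them.

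Library depth lay between 32339533 and 39888396 counted reads. All 10 members were among the 25128 genes tested, which had at least 10 counts summed over the 9 libraries, but Rad21l held 0 to 3 counts in each library and is given no fold change. The labels do not say whether the libraries of a group came from separate animals or cultures, so the p-values measure the spread between these libraries, which may be technical. Marker transcripts of RS were abundant in every library, at a summed CPM (counts scaled to one fixed library total) of 2022 to 2047 with vehicle, 1867 to 1964 with oxamate and 1779 to 1806 with both compounds. The 10 RS markers did not move as one group. Prm1, Prm2, Tnp1 and Tnp2, which encode the proteins that package the DNA of the sperm head, were called lower in all 3 comparisons, and Tssk6 was lower with both compounds against either other group. Catsper1 was higher with oxamate than with vehicle, and Acr and Acrv1 were higher with both compounds than with vehicle. Spermatocyte markers summed to 530 to 609, 527 to 601 and 508 to 535 CPM in the same order. Of the 8, 1 (Piwil1) was called, higher with oxamate than with vehicle, and none with the ester or with both compounds against vehicle. The shares of all genes called in the 3 comparisons were 5.19%, 11.2% and 18.0%. Markers of Sertoli cells were at or near 0, with 5 of 6 at 3 counts or fewer in each library. The 5 macrophage markers summed to 4.29 to 4.93, 3.33 to 3.79 and 2.89 to 3.50 CPM, with Cd68 and C1qa at 3 counts or fewer in each library. Of these C1qb alone was called, lower in all 3 comparisons, at 51.1 ± 3.59, 25.1 ± 3.70 and 14.3 ± 2.66 normalized counts (SD, n = 3). Csf1r had 34.2 ± 4.49, 37.0 ± 3.82 and 42.1 ± 5.01 and Adgre1 76.4 ± 6.02, 62.2 ± 6.88 and 64.2 ± 13.6, without a call, and the medians of the 4 markers tested were -0.089, 0.094 and 0.0056 on the log2 scale. The part of other cells in the members' values was not tested. Vehicle library 1 and oxamate library 4 stood apart. On the first component of the variation left within groups, which held 56.4% of it, they scored 10.1 and 16.4, and the other 7 libraries scored between -9.75 and 1.13.

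The members spanned a wide range of levels. Per kilobase of the longest annotated transcript, Stag3 was the most abundant in the vehicle libraries, at 6649 ± 354 normalized counts per kilobase (SD, n = 3). Its mean over all 9 libraries ranked above 98.3% of the genes tested that had a length. The percentages that follow are ranks on the same mean, not within vehicle. STAG3 is the STAG subunit of meiotic cohesin. It was followed by Smc1b, the meiotic SMC1 paralog, at 2483 ± 363 (94.7%), and by Smc3, the SMC partner common to mitotic and meiotic rings, at 938 ± 136 (88.3%). Rec8, the meiotic kleisin, stands outside the 10 members and lay between Stag3 and Smc1b at 3037 ± 267. The general subunits came next on the same per-kilobase scale, with Rad21, the mitotic kleisin, at 535 ± 21.8, Stag2 at 314 ± 33.8 and Stag1 at 148 ± 9.21. Ctcf stood between the last pair at 257 ± 15.9 (77.6%). Far below were Smc1a, the general SMC1, at 4.90 ± 0.81 (32.2%) and Ctcfl at 4.66 ± 0.67 (28.5%). Their libraries overlapped, and with coding length in place of transcript length their order was the other way round. The other neighbours in the vehicle order did not overlap. The order was the same with oxamate, where the libraries of Stag2 and Ctcf overlapped. With both compounds Smc1b (2952) stood above Rec8 (2736), but the libraries of both overlapped, as did Stag2 and Ctcf.

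**Figure D1:**
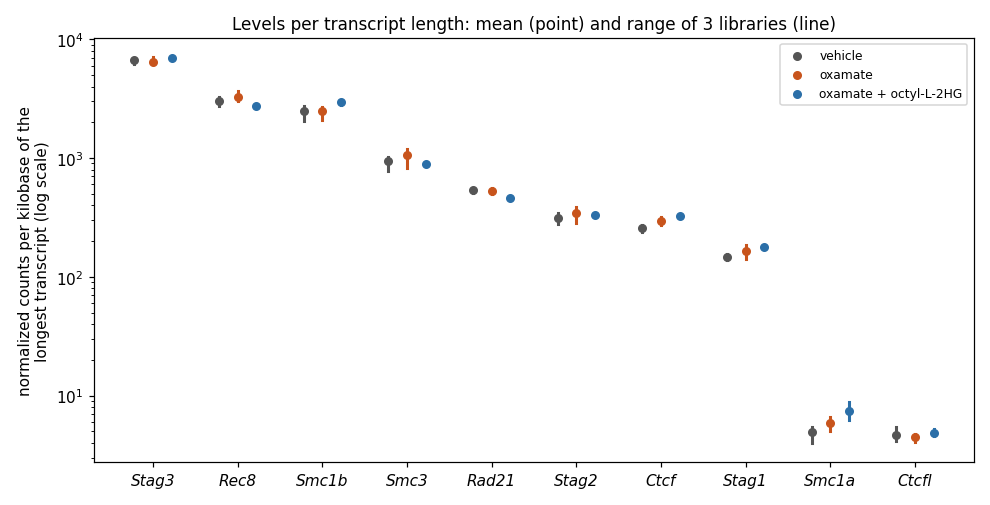
Normalized counts per kilobase of the longest transcript (log axis) for Rec8 and 9 of the 10 members, in the 3 groups. Points are means of 3 libraries and lines run from the lowest to the highest library; Stag3 lies near 6649 and Smc1a and Ctcfl near 5 in vehicle, and the order of the genes differs little between groups.

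The starts of these genes were compared because paralogs with very different levels carry the same short run of bases there. Of the 10 members, 7 have an entry among the 300-base RefSeq promoters (build GRCm38.p6, 250 bases before to 50 after the start). The run TTCCCGCG, searched on both strands, occurred in 4 of these 7 (Stag3, Smc1b, Stag1 and Smc1a) and in 1.01% of 32851 promoters. It began 3 bases before the start of Stag3, 48 before that of Smc1b and 16 before that of Stag1, and at base 39 of Smc1a. The run CCGCCATTTTG occurred in Ctcf, from base 9, and in Smc3, from 2 bases before the start, and in 0.0913% of all promoters. The similar TTTCCCGC, which overlaps TTCCCGCG, was in Stag1 and Smc1a and in 1.07% of promoters. These runs were picked after the sequences had been read, and a match is a description of the letters, not a binding site. The windows below run from 120 bases before to 30 bases after each start, on the strand of the gene, with the run in capitals. They lie at chr5:138280389-138280538 (plus strand), chr15:85131928-85132077 (minus strand), chr9:100643328-100643477 (plus strand), chr8:105636418-105636567 (plus strand) and chr19:53600276-53600425 (plus strand), in the order shown.
Stag3: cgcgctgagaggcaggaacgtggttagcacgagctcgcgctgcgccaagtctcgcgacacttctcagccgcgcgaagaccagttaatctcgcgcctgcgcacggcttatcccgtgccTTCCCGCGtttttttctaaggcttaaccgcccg
Smc1b: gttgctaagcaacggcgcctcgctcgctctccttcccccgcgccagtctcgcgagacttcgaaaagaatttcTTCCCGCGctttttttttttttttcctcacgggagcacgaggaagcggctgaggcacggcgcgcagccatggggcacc
Stag1: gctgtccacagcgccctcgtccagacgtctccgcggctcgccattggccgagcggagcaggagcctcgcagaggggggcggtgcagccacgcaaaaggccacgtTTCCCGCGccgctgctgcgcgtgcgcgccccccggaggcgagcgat
Ctcf: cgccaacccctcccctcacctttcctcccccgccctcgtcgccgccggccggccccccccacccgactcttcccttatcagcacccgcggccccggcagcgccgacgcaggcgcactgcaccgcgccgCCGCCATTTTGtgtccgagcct
Smc3: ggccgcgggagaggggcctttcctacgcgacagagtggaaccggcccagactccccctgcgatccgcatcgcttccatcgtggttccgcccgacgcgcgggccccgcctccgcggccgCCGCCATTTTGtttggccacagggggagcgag

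Of the transcripts of the ring and of CTCF, 3 of 10 were called, all in the comparison of both compounds with vehicle. No member was called between oxamate and vehicle by edgeR's quasi-likelihood test at a Benjamini-Hochberg adjusted p-value under 0.05, where 5.19% of all genes tested were called (3.97% higher and 1.22% lower). At an unadjusted p-value under 0.05, 1 member (Ctcf) passed, against 17.3% of all genes. Adding octyl-L-2HG to oxamate gave no called member either, with 11.2% of all genes called (3.18% higher and 8.06% lower), and 3 members (Smc1b, Smc3 and Rad21) passed at an unadjusted p-value, against 23.6%. With both compounds against vehicle Ctcf and Stag1 were higher and Rad21 was lower, which is 3 of 10 members where 18.0% of all genes were called, 7.48% higher and 10.6% lower. There 5 members passed at an unadjusted p-value (Smc1a, Smc1b, Rad21, Stag1 and Ctcf), against 30.0% of all genes. The test of any difference among the 3 groups called Ctcf and Rad21, where it called 19.8% of all genes. The median log2 fold change of the 9 members above the detection floor of 3 counts was 0.15, 0.087 and 0.058 in the 3 comparisons, and that of all genes tested was -0.011, -0.038 and -0.045. With Rad21l, at the floor, included, the medians of the members were 0.16, 0.085 and 0.14. Of the 10 members, 9 have a longest transcript of at least 3 kb. At mean normalized counts of 100 or more, the 5357 genes whose longest transcript reached 3 kb had medians of 0.055, 0.041 and 0.11, and the 5339 shorter ones had -0.035, -0.017 and -0.041. Length was not a term of the fit, and its part in the members' values was not tested. In RNA of a whole cell sample, fewer cells that make a transcript and less of it per cell cannot be told apart.

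**Figure D2:**
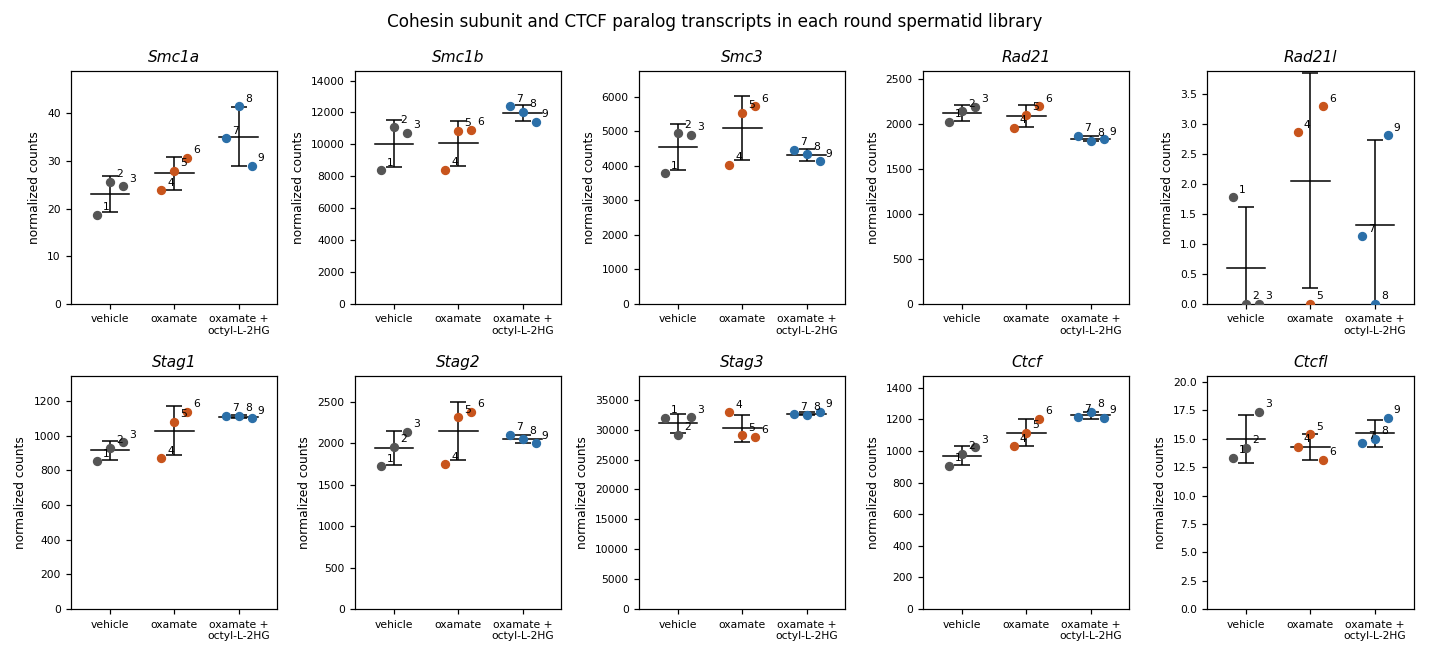
Normalized counts (linear axes from 0) of the 10 members in each of the 9 libraries, with library numbers; horizontal lines are group means and bars are ± 1 SD (n = 3). Libraries 1 and 4 are the lowest of their groups for Smc1a, Smc1b, Smc3, Rad21, Stag1, Stag2 and Ctcf, and the libraries with both compounds lie close together for Stag1, Rad21 and Ctcf.

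Ctcf, which encodes the zinc finger protein that binds insulators and stops cohesin at loop anchors, was the member with the smallest p-value. Its normalized counts were 905, 984 and 1024 in the vehicle libraries, 1031, 1115 and 1205 in the oxamate libraries and 1217, 1250 and 1209 with both compounds. Each oxamate library exceeded each vehicle library, and each library with both compounds exceeded all others, so that the groups did not overlap in any comparison. Between oxamate and vehicle 1 member, Ctcf, had groups without overlap, against 21.3% of all genes. Between both compounds and oxamate 3 members did (Ctcf and Smc1b higher, Rad21 lower), against 28.8%. Between both compounds and vehicle 5 were higher (Smc1a, Smc1b, Stag1, Stag3 and Ctcf) and 1 lower (Rad21), against 36.5%. Ctcf was 24.3% higher with both compounds than with vehicle (log2 fold change 0.31, SE 0.08, 95% interval 0.16 to 0.47, adjusted p = 0.00551 by edgeR's quasi-likelihood test). This call held in 17 of 17 alternative settings, with log2 fold changes of 0.25 to 0.37 and adjusted p-values up to 0.0361. These settings include a fit without vehicle library 1 and oxamate library 4, which was chosen after seeing the data. The lincRNA gene Gm5914 shares 370 exon bases with Ctcf on the opposite strand and held 32 counts over the 9 libraries. The separate steps were smaller. Oxamate against vehicle gave a log2 fold change of 0.21 (SE 0.08, adjusted p = 0.141 by edgeR), and the ester against oxamate alone gave 0.11 (SE 0.08, adjusted p = 0.434 by edgeR). With single libraries left out these values ran from 0.15 to 0.26 and from 0.059 to 0.16. The ester step was 0.059 without oxamate library 4 (adjusted p = 0.642 by edgeR).

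Rad21, the kleisin that closes the general cohesin ring, differed in the opposite direction. It had 2021, 2139 and 2190 normalized counts with vehicle, 1954, 2099 and 2193 with oxamate, and 1866, 1810 and 1827 with both compounds. The vehicle and oxamate libraries overlapped, and the 3 libraries with both compounds were the lowest of the 9. Against vehicle Rad21 fell by 0.23 on the log2 scale (SE 0.07, 95% interval -0.37 to -0.09), which is a difference of -14.6% (adjusted p = 0.0222 by edgeR's quasi-likelihood test). Against oxamate alone the log2 fold change was -0.21 (SE 0.07, adjusted p = 0.053 by edgeR). Oxamate against vehicle gave -0.02 (SE 0.07, adjusted p = 0.929 by edgeR). The call against vehicle was lost when library 2, 3, 7, 8 or 9 was left out (adjusted p from 0.0611 to 0.103 by edgeR). It was also lost without the filter on low counts (adjusted p = 0.115 by edgeR). It was kept in 11 of 17 settings, with log2 fold changes of -0.29 to -0.18 in all 17. Those that kept it include the fit without vehicle library 1 and oxamate library 4, chosen after seeing the data.

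Stag1 and Stag2 encode the STAG proteins of general cohesin. Stag1 had 851, 931 and 962 normalized counts with vehicle, 869, 1081 and 1139 with oxamate and 1114, 1115 and 1099 with both compounds. All libraries with both compounds exceeded all vehicle libraries, and the oxamate libraries ranged across both. Stag1 was 19.5% higher with both compounds than with vehicle (log2 fold change 0.26, SE 0.09, adjusted p = 0.0442 by edgeR's quasi-likelihood test). That call lay close to the threshold. It was lost when library 1, 2, 3, 5, 7, 8 or 9 was left out (adjusted p from 0.0516 to 0.154 by edgeR). It was also lost when libraries were scaled by total counts (adjusted p = 0.152 by edgeR), and it was kept in 9 of 17 settings. Those that kept it include the fit without vehicle library 1 and oxamate library 4, chosen after seeing the data. Stag2 had 1722, 1958 and 2138 normalized counts with vehicle, 1744, 2312 and 2380 with oxamate and 2098, 2054 and 1996 with both compounds. Its groups overlapped in all 3 comparisons, with log2 fold changes of 0.15, -0.09 and 0.06 (SE 0.09 each) and adjusted p-values of 0.46 or more by edgeR.

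Stag3, the most abundant member, showed no called difference. Its normalized counts were 31952, 29138 and 32040 with vehicle, 32876, 29045 and 28717 with oxamate and 32569, 32458 and 33021 with both compounds. Oxamate library 4, which was low for most members, was the highest oxamate library here. The 95% intervals of the difference ran from -11.2% to 7.37% for oxamate against vehicle, from -3.38% to 16.8% for the ester against oxamate, and from -5.63% to 14.0% for both compounds against vehicle.

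The SMC subunits were not called with all 9 libraries and the filter on low counts. Smc1b had 8362, 11061 and 10724 normalized counts with vehicle, 8406, 10863 and 10902 with oxamate and 12385, 12050 and 11404 with both compounds. Each library with both compounds exceeded all 6 others, yet the log2 fold changes of 0.22 against oxamate and 0.23 against vehicle (SE 0.10 each) had adjusted p-values of 0.148 and 0.107 by edgeR's quasi-likelihood test. Both differences moved with single libraries and with the settings. Against oxamate the value was 0.11 without oxamate library 4 (adjusted p = 0.401 by edgeR), and it was called in 1 of 17 settings, without the filter on low counts (0.27, adjusted p = 0.00388 by edgeR). Against vehicle it was 0.11 without vehicle library 1 (adjusted p = 0.454 by edgeR) and also without libraries 1 and 4 (0.073), and it was called in 3 of 17 settings: without the filter (0.27, 0.00172), in a fit of the 2 groups alone (0.24, 0.0262) and without oxamate library 4 (0.23, 0.0281). Smc3 had 3788, 4952 and 4905 normalized counts with vehicle, 4033, 5541 and 5728 with oxamate and 4470, 4332 and 4131 with both compounds. In Smc3 the groups overlapped, with library 4 below all 3 libraries with both compounds and libraries 5 and 6 above every other library. Its log2 fold changes were 0.17, -0.27 and -0.10 in the 3 comparisons (SE 0.11 each), with adjusted p-values of 0.456, 0.118 and 0.594 by edgeR.

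Smc1a rested on few reads, 21 to 36 in each library. It had 18.7, 25.6 and 24.7 normalized counts with vehicle, 23.8, 27.9 and 30.7 with oxamate and 34.8, 41.5 and 29.0 with both compounds. All libraries with both compounds lay above all vehicle libraries. The log2 fold change of 0.58 had a 95% interval of 0.11 to 1.04 and an adjusted p of 0.079 by edgeR's quasi-likelihood test (unadjusted p = 0.017), so it did not pass the threshold over all genes. Rad21l, the second meiotic kleisin, was at the floor in every library, with 2, 0 and 0 counts with vehicle, 3, 0 and 3 with oxamate and 1, 0 and 3 with both compounds.

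**Figure D3:**
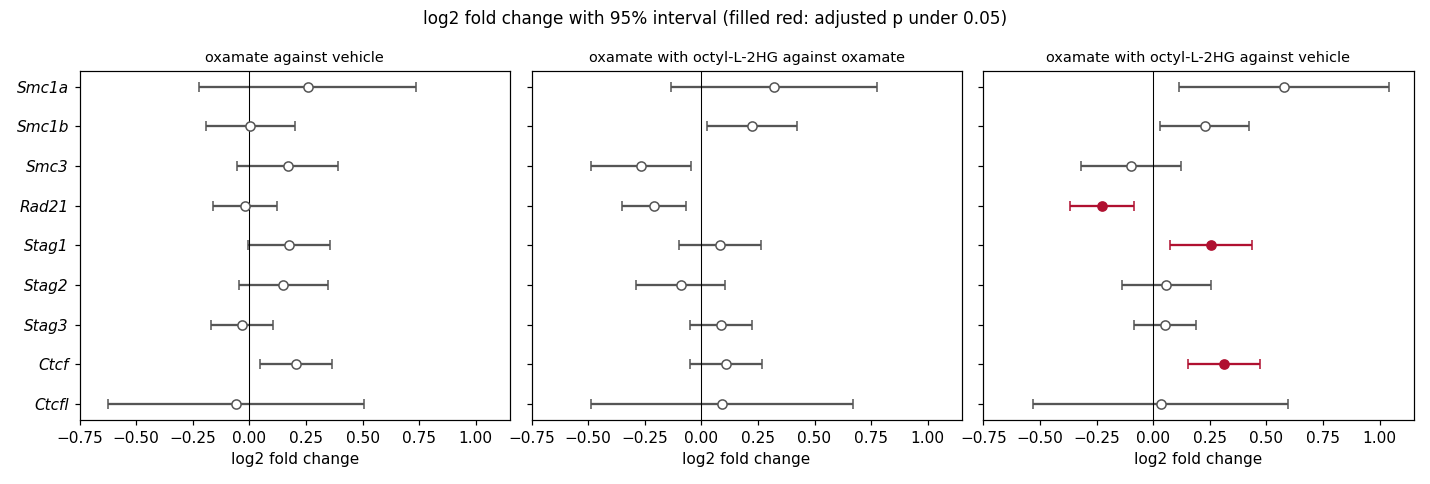
log2 fold changes of the 9 members above the detection floor in the 3 comparisons, with 95% intervals; filled red points have an adjusted p-value under 0.05. Only Ctcf, Stag1 and Rad21 are filled, and only in the comparison of both compounds with vehicle, at 0.31, 0.26 and -0.23.

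Ctcfl, which is made in male germ cells before and around the start of meiosis, was near the limit of counting in RS. It had 12 to 19 reads in each library. Its normalized counts were 13.3, 14.2 and 17.4 with vehicle, 14.3, 15.4 and 13.2 with oxamate and 14.6, 15.0 and 16.9 with both compounds. The groups overlapped throughout, and the interval for oxamate against vehicle was wide (log2 fold change -0.06, 95% interval -0.62 to 0.51). The 3 genes listed as tied to CTCFL in testis (Gal3st1, Prss50 and Stra8) held 10 or fewer counts in each library. None was called in the 3 comparisons, where 5.19%, 11.2% and 18.0% of all genes were. The annotated opposite-strand gene of Ctcfl behaved differently. Ctcflos had 34.7, 44.5 and 31.1 normalized counts with vehicle, 87.6, 88.5 and 78.9 with oxamate and 48.3, 47.3 and 44.0 with both compounds. Every oxamate library stood above the other 6. Ctcflos rose with oxamate (log2 fold change 1.22, SE 0.17, adjusted p = 0.000104 by edgeR's quasi-likelihood test) and fell when the ester was added (-0.90, SE 0.16, adjusted p = 0.000962 by edgeR), and both calls held in 17 of 17 alternative settings. Both compounds against vehicle gave 0.32 (SE 0.19, adjusted p = 0.271 by edgeR). The exons of this pair share 171 bases in the GENCODE M21 annotation, 5.32% of the exon bases of Ctcfl. The libraries were stranded, but the strand setting of the counting is not given in the sources used here, so reads in that stretch cannot be assigned with certainty.

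**Figure D4:**
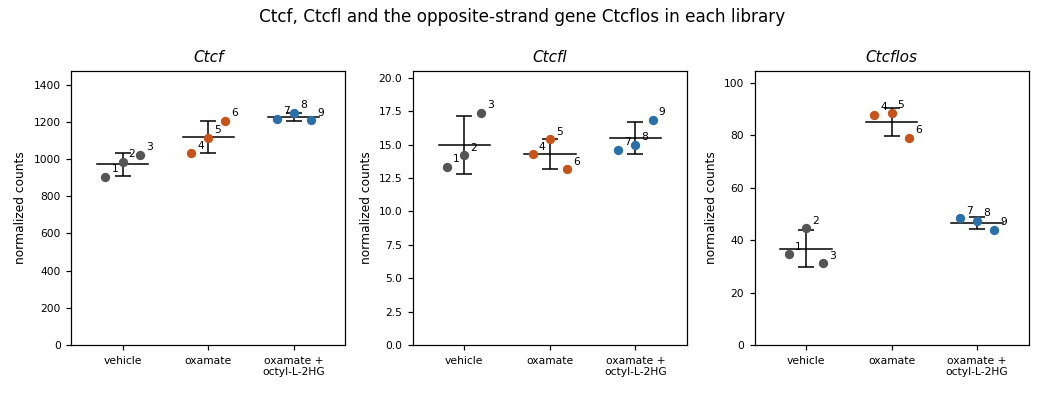
Normalized counts (linear axes from 0) of Ctcf, Ctcfl and the opposite-strand gene Ctcflos in each numbered library, with group means and ± 1 SD (n = 3). The 3 oxamate libraries of Ctcflos lie at 78.9 to 88.5, above the other 6 libraries at 31.1 to 48.3, and Ctcfl lies at 13.2 to 17.4 in all 9.

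Ratios of paralog counts within a library do not depend on the scaling between libraries. Smc1b gave 438 ± 8.78 reads per read of Smc1a in the vehicle libraries, 366 ± 20.3 in the oxamate libraries and 346 ± 51.9 with both compounds (SD, n = 3). The vehicle libraries lay above all others, and the log2 ratio differed from vehicle by -0.26 with oxamate and by -0.34 with both compounds, each with p = 0.1 in a two-sided exact permutation test, the smallest p that 3 libraries against 3 allow (adjusted p = 0.3 over 12 tests). Stag3 gave 10.9 ± 1.28, 9.77 ± 2.44 and 10.4 ± 0.281 reads per read of Stag1 and Stag2 together, with exact permutation p-values of 0.5 to 0.7. Ctcfl gave 0.0154, 0.0129 and 0.0126 reads per read of Ctcf, and the differences from vehicle again reached p = 0.1 in the exact permutation test (adjusted p = 0.3). These counts are not corrected for transcript length. Smc1a held 21 to 36 reads and Ctcfl 12 to 19 in each library, so the SD over 3 libraries can understate the counting noise in their ratios.

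One library decided several of these outcomes. Vehicle library 1 was the lowest of its group for 8 of the 9 members above the floor, against 38.8% of all genes tested, and oxamate library 4 was the lowest for 7 of 9, against 44.1%. Stag3 was the exception in both, and Ctcfl also in library 4. Without oxamate library 4, 4 members were higher with oxamate than with vehicle, where 6.42% of all genes were: Smc3 (log2 fold change 0.31, adjusted p = 0.0128), Stag1 (0.28, 0.00886), Stag2 (0.27, 0.00812) and Ctcf (0.26, 0.0168), all by edgeR's quasi-likelihood test. In the same fit 3 members were lower with the ester than with oxamate alone, where 11.5% of all genes were: Smc3 (log2 fold change -0.41, adjusted p = 0.000576), Rad21 (-0.25, 0.0052) and Stag2 (-0.22, 0.0268), all by edgeR. Stag3 was higher (0.16, 0.044), where 6.38% of all genes were. Against vehicle, both compounds then gave Smc1b, Stag1 and Ctcf as higher, where 11.4% of all genes were, and Rad21 as lower, where 13.7% were. In that fit Smc3 and Stag2 were called in both steps, higher with oxamate and lower again with the ester. Both steps use the same oxamate libraries, so leaving out a low one moves them together, and these calls are not separate observations. With all 9 libraries neither gene was called in either step. With vehicle library 1 left out as well, a setting chosen after seeing the data, the same 4 members were higher with oxamate (log2 fold changes 0.19 to 0.23, adjusted p from 0.0145 to 0.037 by edgeR, 6.14% of all genes higher). Lower with the ester were again Smc3 (-0.41, adjusted p = 2.93e-08 by edgeR), Rad21 (-0.25, 0.000465) and Stag2 (-0.22, 0.0021), where 13.9% of all genes were lower. Stag3 was again higher (0.16, 0.00924), where 10.0% of all genes were. Against vehicle, Stag1 and Ctcf were then higher with both compounds (12.2% of all genes higher), and Rad21 and Smc3 lower (14.0% lower), with -0.21 for Smc3 (adjusted p = 0.000723 by edgeR). These fits rest on a pair of oxamate libraries, 5 and 6, whose counts were the closest of the group. The fit without libraries 1 and 4 also rests on vehicle libraries 2 and 3 alone. It leaves out the libraries that stood apart within their groups, so its p-values measure a spread narrowed by that choice.

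**Figure D5:**
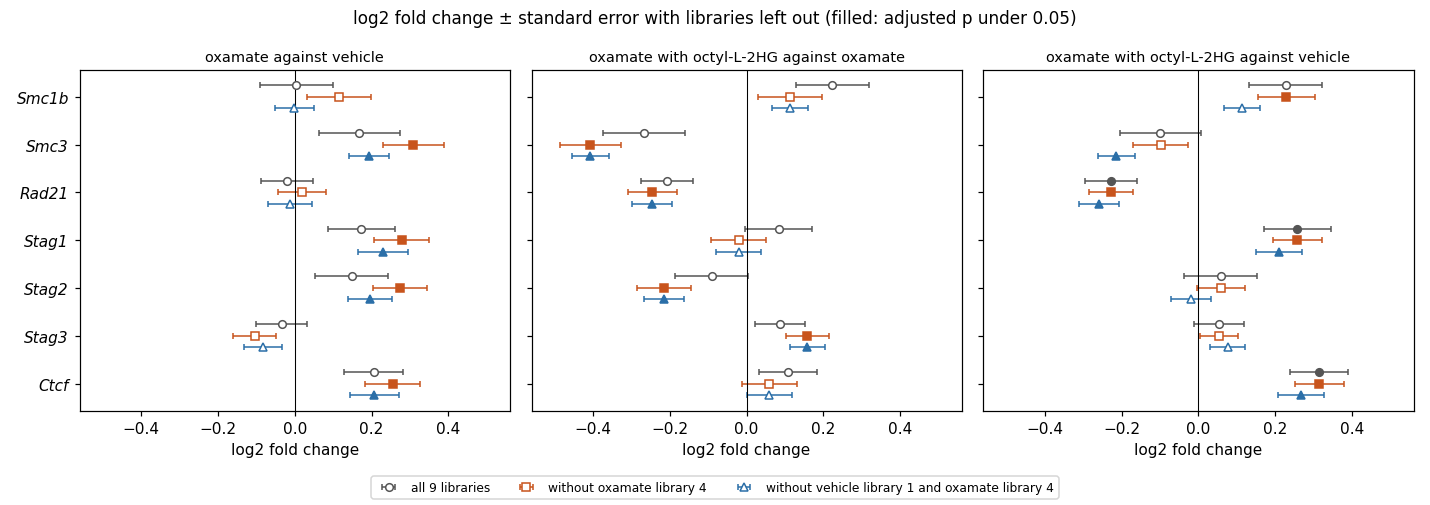
log2 fold changes ± SE of 7 members in the 3 comparisons with all 9 libraries, without oxamate library 4, and without vehicle library 1 and oxamate library 4; filled symbols have an adjusted p-value under 0.05. Smc3 and Stag2 are filled in the first 2 comparisons when library 4 is left out, and Ctcf is filled against vehicle in each fit with both compounds.

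Genes that load, release and protect cohesin, with the meiotic kleisin Rec8, were read beside the members. Of these 17 genes 16 were tested, and their median log2 fold changes were 0.068, 0.094 and 0.074 in the 3 comparisons. With oxamate 1 was higher than with vehicle (Mau2) and 1 lower (Sgo2a), where 3.97% of all genes were higher and 1.22% lower. With the ester 3 were higher than with oxamate alone (Mau2, Wapl and Pds5a) and 1 was lower (Rec8), against 3.18% and 8.06% of all genes. Against vehicle 4 were higher with both compounds (Mau2, Wapl, Pds5b and Nipbl) and none was lower, against 7.48% and 10.6% of all genes. At an unadjusted p-value under 0.05 by edgeR 7 of 16 passed there, against 30.0%. Mau2, a subunit of the loader that puts cohesin on chromatin, rose in each step, from 1406 ± 111 normalized counts (SD, n = 3) with vehicle to 1885 ± 271 with oxamate and 2382 ± 113 with both. The log2 fold changes were 0.43 (adjusted p = 0.00579), 0.31 (0.0277) and 0.74 (6.14e-06) by edgeR's quasi-likelihood test. Nipbl, its partner in the loader, was named after its values were seen and gave 0.26 against vehicle (adjusted p = 0.0476 by edgeR). Wapl, which opens the ring and releases it, had 9065 ± 613, 9199 ± 609 and 12280 ± 380 normalized counts. It differed by 0.39 from oxamate alone (adjusted p = 0.000613 by edgeR) and by 0.42 from vehicle (0.000131). Pds5b, which binds the ring with WAPL, gave 0.41 against vehicle (0.00131), and its paralog Pds5a gave 0.27 against oxamate (0.0454). Sgo2a, the shugoshin that protects centromeric cohesin in meiosis, fell with oxamate by 0.37 on the log2 scale (adjusted p = 0.0177 by edgeR). Its log2 fold change was 0.28 with the ester against oxamate, with all libraries higher (adjusted p = 0.0501 by edgeR), and -0.09 with both compounds against vehicle (0.576).

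Rec8 had 7117, 5985 and 6795 normalized counts with vehicle, 7973, 6832 and 6655 with oxamate and 5806, 5840 and 6279 with both compounds. The oxamate libraries all lay above those with both compounds, which overlapped with vehicle. Rec8 fell by 0.29 on the log2 scale with the ester against oxamate alone (SE 0.08, adjusted p = 0.0211 by edgeR's quasi-likelihood test), a call kept in 14 of 17 settings.

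Among 16 genes of the other SMC complexes (condensin, SMC5/6 and SMCHD1), none was called with oxamate against vehicle, with 1 at an unadjusted p-value under 0.05 by edgeR, against 5.19% and 17.3% of all genes. With the ester 4 were higher than with oxamate (Ncapg, Smc4, Smc6 and Eid3), where 3.18% of all genes were. With both compounds 3 were higher than with vehicle (Ncapg, Smc6 and Smchd1), where 7.48% of all genes were. None was lower, and the medians were -0.0019, 0.080 and 0.12. Smc6 had the largest of these differences, 0.36 against oxamate (adjusted p = 0.00851 by edgeR) and 0.41 against vehicle (0.0018). Of 8 further factors of chromatin architecture, 1 was called with oxamate and with the ester, where 5.19% and 11.2% of all genes were, and none with both compounds against vehicle, with 1 at an unadjusted p-value under 0.05 by edgeR, against 18.0% and 30.0% of all genes. Chd8, a remodeller that binds CTCF, rose with oxamate from 637 ± 52.9 to 879 ± 92.3 normalized counts (log2 fold change 0.47, adjusted p = 0.00294 by edgeR) and fell to 618 ± 60.7 with the ester (-0.53, adjusted p = 0.000633 by edgeR).

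The genes most like the 3 members with the smallest p-values were found by the distance between z-scores of log2 CPM over the 9 libraries, among 10714 genes whose mean normalized count reached 100. For Ctcf they were Ankib1 (distance 0.33), Ttbk2 (0.49) and Heatr4 (0.51). For Rad21 they were Kcnk5 (0.40), Nck2 (0.43) and Gm5152 (0.47), and for Stag1 they were Shcbp1 (0.41), Mucl1 (0.52) and Pdzd8 (0.55). Genes share the libraries' depth and their deviations, and the distances are a description.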

How the data were processed

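RNA of RS cells was sequenced in 9 libraries, 3 per group, grouped by the treatment in the labels. The authors trimmed the reads, aligned them to GRCm39 with TopHat2 2.1.1 and counted them per gene with HTSeq 2.01, per the labels and the methods. They deposited the raw count of each gene and a normalized signal, called the normalized count here, which equals that count over the library's size factor from DESeq2. The labels and the methods name different sequencers.

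The test was edgeR 4.0.16 (R 4.3.3) with TMM scaling, genes with at least 10 counts over the 9 libraries, all libraries in one robust quasi-likelihood fit with group as its one term, and Benjamini-Hochberg adjustment over all genes tested. Alternatives were DESeq2 1.42.0, 2 other scalings, 2 other filters, no robust estimation, fits of a pair of groups alone, and leaving out each library in turn. A further alternative left out vehicle library 1 and oxamate library 4 together, and it was chosen after seeing the data. It is counted among the 17 settings. Transcript lengths came from GENCODE M21, matched by identifier for 99.6% of genes tested. Intervals cover 95%.

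The members and the gene lists were chosen with earlier results of these data known. From each list Rec8 and up to 5 called genes are named, those with the smallest p-value of the test over 3 groups first, and Nipbl falls outside that rule. No libraries of a group had counts that matched within sampling noise.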

Additional observations from a re-analysis of the deposited data

How the results depend on the processing

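The call of Ctcf against vehicle and both calls of Ctcflos were kept in all 17 settings, of which 1 was chosen after seeing the data. Stag1 and Rad21 were not, and the numbers of members called moved with single libraries. Leaving out 1 library gave 0 to 4 members higher and none lower with oxamate against vehicle, 0 to 1 higher and 0 to 3 lower with the ester against oxamate, 1 to 3 higher and 0 to 1 lower with both compounds against vehicle, and 0 to 5 that differed among the 3 groups. The genes called then numbered 659 to 2288, 1396 to 4415, 2970 to 6194 and 3154 to 7328 in the same order. Without vehicle library 1 and oxamate library 4, 4 members were higher with oxamate, 1 higher and 3 lower with the ester, 2 lower with both compounds and 6 differed among the groups, and 2074, 5751 and 7715 genes were called for oxamate, for the ester and among the groups. With an unadjusted p-value under 0.05 these were 1 higher, 1 higher and 2 lower, 4 higher and 1 lower, and 4 that differed, with 4348, 5934, 7527 and 7910 genes. With an adjusted p-value under 0.01, 1 member was higher and 0 lower with both compounds, 0 differed among the groups, and 602, 1261, 2607 and 2774 genes were called. Without a filter, 1 member was higher and 1 lower with the ester, and 4 differed among the groups. With both compounds against vehicle Ctcf, Stag1 and Smc1b were then higher and 0 members lower. The genes called were 3226, 5111 and 5779 for the ester, for both compounds against vehicle and among the groups. Total counts as the scaling gave 1 lower with the ester, 1 higher with both compounds and 1 that differed, with 2937, 4598 and 4928 genes. DESeq2 gave 1 that differed (4418 genes), as did its size factors in edgeR (5104 genes). A fit of only oxamate and vehicle called 745 genes. Several uncalled values turned sign: that of Smc1b with oxamate, from -0.11 (without library 1) to 0.11 (without library 4) over the libraries left out, and that of Stag1 with the ester, from -0.021 (without library 4) to 0.16 (without library 6), and -0.020 without libraries 1 and 4. Leaving out 1 library also turned the sign of uncalled values near 0: Rad21 (-0.053 to 0.019), Stag3 (-0.10 to 0.0063) and Ctcfl (-0.14 to 0.053) with oxamate, and Stag2 (-0.020 to 0.15) and Ctcfl (-0.045 to 0.17) with both compounds against vehicle. Total counts as the scaling turned Smc1b with oxamate (-0.013) and Stag2 (-0.0056), Stag3 (-0.0100) and Ctcfl (-0.028) with both compounds. Leaving out libraries 1 and 4 turned Smc1b (-0.0012) with oxamate and Stag2 (-0.020) and Ctcfl (-0.044) with both compounds, and another filter turned Smc1b with oxamate (-0.00086). The other scalings moved the median of all genes by -0.063 to 0.025. No paired analysis was possible because the groups share no replicate numbers. Smc1a and Ctcfl had fewer than 40 reads a library and the widest intervals of the members given a fold change. The cause of the moves was not tested.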
